A study of Sus scrofa with 6 samples.

Results

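This section follows 10 uterine receptivity factors in the endometrium, the inner lining of the uterus: HOXA10, HOXA11, HAND2, TCF21, NR2F2, FOXO1, GATA2, SOX17, KLF9 and IHH. They were chosen by symbol, as transcription factors of the stroma and of the progesterone pathway together with the ligand IHH. Of the 10, 9 matched a row among the 14262 genes of the expression table. SOX17 matched no row through the identifier table and is not analysed here. The tissue was taken on day 12 of gestation from pigs (Sus scrofa) of the Erhualian breed, which is native to China. RNA sequencing covered 3 high prolific sows (high 1, high 2 and high 3) and 3 low prolific sows (low 1, low 2 and low 3), with no treatment named. The sows differed in parity, the count of past litters, with 5, 8 and 8 for high 1 to high 3 and 7, 7 and 5 for low 1 to low 3. The labels give no litter sizes, no definition of the prolificacy groups and no age, and with 3 sows a group any animal difference other than prolificacy cannot be told apart from it.

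In the receptive uterus, progesterone acts through its receptor PGR to make the epithelium secrete Indian hedgehog (IHH). IHH signals to the stroma beneath through the receptor PTCH1 and the transducer SMO, and in mice this induces the nuclear receptor NR2F2. In the stroma, HAND2 curbs the fibroblast growth factors that would keep the epithelium under estrogen drive. HOXA10 and HOXA11 pattern the uterus and are needed for implantation in mice, GATA2 acts upstream of PGR, and FOXO1 and KLF9 work with PGR in its target genes. Most of this was worked out in mice and in human stromal cells, and the pig does not form a decidua.

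Of the 9 measured factors, 2 differed between the groups at an unadjusted p under 0.05 (limma), TCF21 lower and GATA2 higher in high prolific sows. That share stands beside 7.92% of all genes at the same threshold. None of the 9 passed after adjustment over all 14262 genes, where limma called 0 genes. The table holds normalized read counts, a log2 fold change is the high minus the low prolific mean of log2(value + 1), and adjusted p-values are from limma with Benjamini-Hochberg adjustment. Beside 4.09% of all genes that were lower and 3.83% that were higher at that threshold, there was 1 factor in each direction. In 1 of the 9, TCF21, the groups did not overlap, beside 13.5% of all genes (6.32% lower and 7.18% higher in high prolific sows). The median log2 fold change of the 9 was -0.083, with 3 higher and 6 lower, against -0.0024 over all genes. This lean depended on the sows included: the median turned to 0.107 (5 higher, 4 lower) without low 3 and to 0.139 (6 higher, 3 lower) without both low 2 and low 3. It was 0.0069 without low 1 and 0.0055 with parity as a covariate, each with 5 higher and 4 lower.

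**Figure D1:**
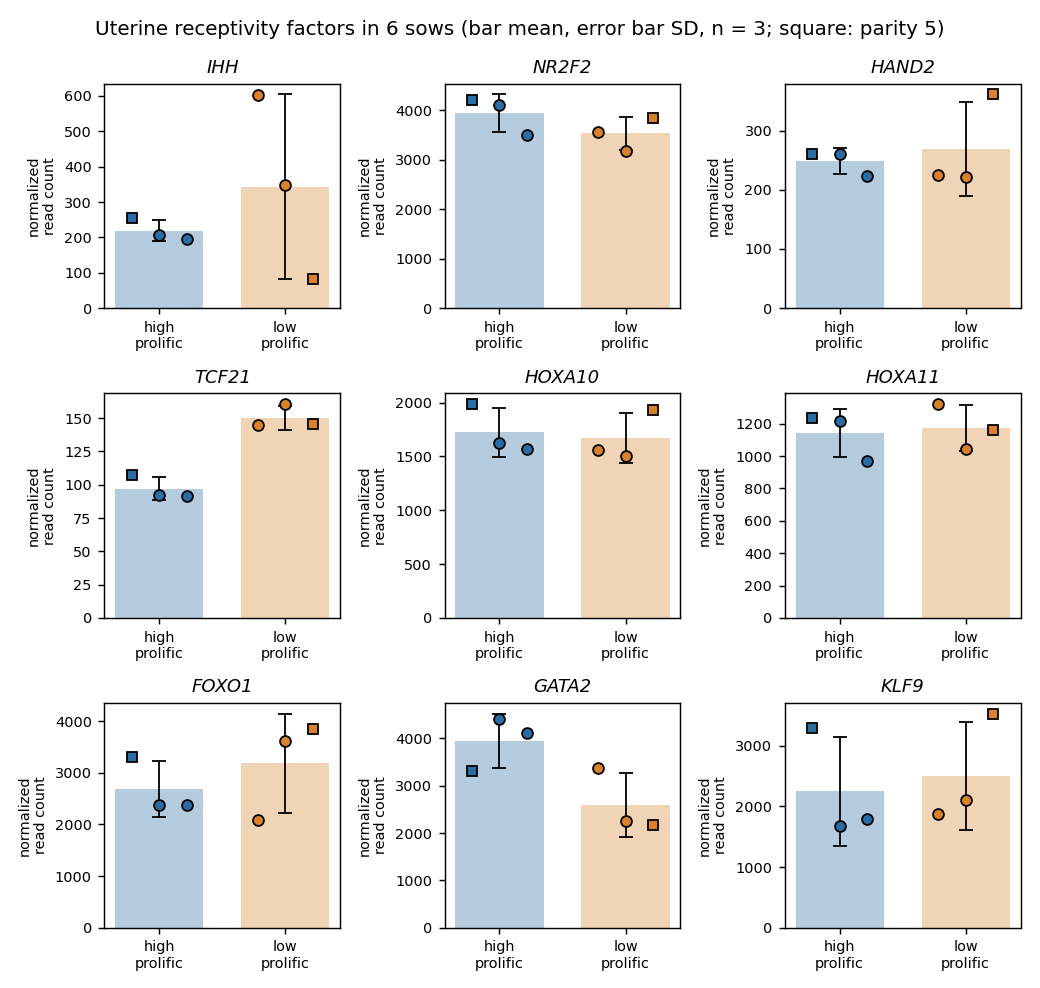
Normalized read counts (linear axes from 0) of the 9 factors, high prolific in blue and low prolific in orange; each bar is a mean, each error bar the SD over 3 sows, and each point a sow, drawn as a square where parity was 5. TCF21 is the only panel in which all 3 high prolific sows (91.8 to 107) lie below all 3 low prolific sows (144 to 160.5).

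**Figure D2:**
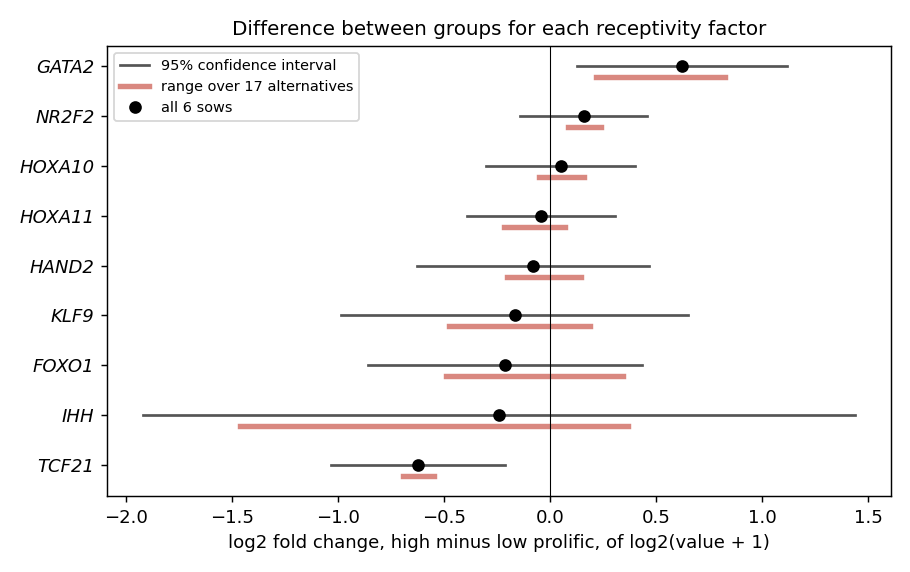
Log2 fold change (high minus low prolific) of the 9 factors with its 95% confidence interval (grey) and the range over 17 alternatives (red). Only the intervals of TCF21 (-1.04 to -0.21) and GATA2 (0.13 to 1.12) leave out 0, before adjustment for the number of genes.

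The first principal component of the whole table, with 43.6% of the variance, set low 2 and low 3 apart from the other 4 sows, so values without these 2 are also given for the factors, and for the leading genes of each list, where they moved by over 1.5 times. Stromal fibroblast markers (8 of 9 measured) summed to between 507947 and 692882 in high and between 601230 and 813388 in low prolific sows. Epithelial markers (8 of 9) ran from 72596 to 75340.1 and from 61280.5 to 84963, and endothelial markers (7 of 9) from 10326 to 15595 and from 13007 to 23949. The smooth muscle sum (7 of 8) was 18463 to 25772 against 18344 to 27889.5, and the leukocyte sum (8 of 8) 3020.2 to 3880.2 against 3098 to 3971. Neutrophil markers (4 of 6) were at 276 to 9139 against 11666 to 23295, and trophoblast markers (3 of 7) at 96.6 to 119 against 132 to 175. For these last 2 sums the groups did not overlap, which in 3 against 3 sows gives the smallest exact permutation p the design allows, 0.1. Taken singly, 3 of the 4 neutrophil markers were lower in high prolific sows and 1 was higher, with 0 free of overlap. All 3 trophoblast markers, GATA3, ELF5 and TFAP2C, were lower, 1 of them without overlap, beside 6.32% of all genes. CYP17A1, CYP19A1, IFNG and CDX2 of that list matched no row, and whether the sum reflects conceptus RNA was not tested. Marker by marker, 7 of 8 stromal fibroblast genes, 7 of 7 endothelial, 5 of 5 pericyte and 6 of 7 smooth muscle genes were lower in high prolific sows, with median log2 fold changes of -0.28, -0.45, -0.25 and -0.77. At an unadjusted p under 0.05 (limma) were 1 stromal, 1 endothelial, 0 pericyte and 2 smooth muscle genes, all lower. Of all genes 4.09% were lower at that threshold, and none of these markers passed adjustment. MYH11, the largest part of the smooth muscle sum in each of the 6 sows, was higher (0.33). Of the other smooth muscle markers 4 were lower without overlap, beside 6.32% of all genes. The part of these cell types in the results below was not tested. No marker of these lists was listed at 0.

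IHH, the hedgehog ligand of the uterine epithelium, was at 254, 207 and 196 in high 1 to high 3. It was at 603 in low 1, 347 in low 2 and 81.3 in low 3. The high prolific sows thus lay close together, inside the range of the low prolific sows, which held both the highest and the lowest value. Means were 219 ± 30.5 and 344 ± 261 (SD, n = 3), and the log2 fold change was -0.24 ± 0.70 (SE, adjusted p = 0.938 with limma). Its 95% confidence interval ran from -1.92 to 1.44, so a 2-fold difference in either direction lies within the interval. The value depended on which low prolific sows were included. It was 0.37 without low 1, -0.027 without low 2, -1.07 without low 3 (unadjusted p = 0.0107, adjusted p = 0.505 with limma) and -1.46 without both low 2 and low 3. Over all 17 alternatives the adjusted p of IHH lay between 0.505 and 0.9999.

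IHH was also the most variable of the 9. Its highest sow was 7.33-fold above its lowest, and its SD over the 6 sows, 0.96 on the log2 scale, exceeded that of 94.5% of the 1001 genes nearest to it in mean level. By the same measure KLF9 stood above 89.8%, GATA2 above 86.5% and FOXO1 above 82.3% of their own nearest genes. HAND2, TCF21, HOXA10 and HOXA11 stood between 44.7% and 49.3%. NR2F2 was the steadiest by this rank, at 38.96%, with 1.32-fold between its highest and lowest sow.

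Of the 16 hedgehog pathway genes considered, IHH included, 14 were measured, with 6 higher and 8 lower in high prolific sows. Of these, 1 was higher and 1 lower at an unadjusted p under 0.05, beside 3.83% and 4.09% of all genes, and 0 passed over all genes. PTCH1, the hedgehog receptor and itself a transcriptional target of the pathway, was at 1477, 1468 and 1145 in high 1 to high 3. It was at 2365 in low 1, 1771 in low 2 and 1712 in low 3, above every high prolific sow. The log2 fold change was -0.51 ± 0.17 (SE, unadjusted p = 0.0228, adjusted p = 0.619 with limma), and -0.80 without both low 2 and low 3. Low 1, the sow with most IHH, also had the highest PTCH1, while low 3 had the lowest IHH and still more PTCH1 than any high prolific sow.

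KIF7, a kinesin of the cilium that regulates GLI proteins, was at 827, 1224 and 1017 in high and 723, 839.9 and 566 in low prolific sows, with an overlap between high 1 and low 2. DHH, another hedgehog ligand, was low throughout, at 14.8 to 38.1 in high and 37.3 to 63.7 in low prolific sows. Its log2 fold change of -0.99 was -0.55 without both low 2 and low 3. GLI1, a transcription factor that the pathway itself induces, was looked up after its values were seen. It was at 61.3, 54.7 and 58.6 in high 1 to high 3 and at 140.2, 167 and 49.4 in low 1 to low 3. As with IHH, low 1 and low 2 were above and low 3 below all high prolific sows.

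**Figure D3:**
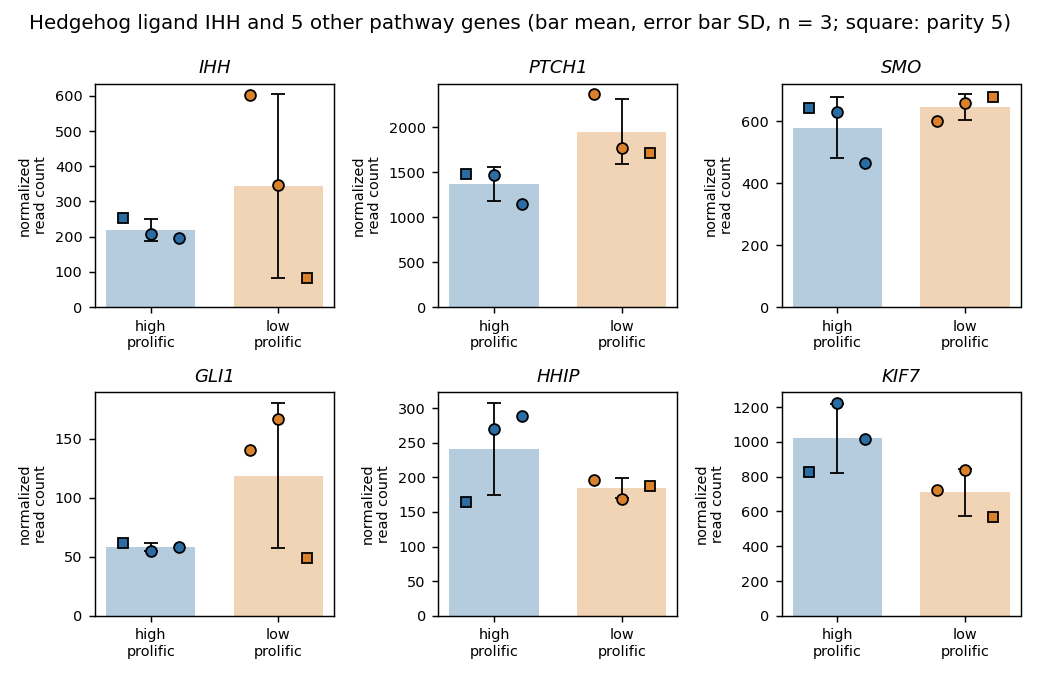
Normalized read counts (linear axes from 0) of IHH and 5 other hedgehog pathway genes, high prolific in blue and low prolific in orange; each bar is a mean, each error bar the SD over 3 sows and each point a sow, drawn as a square where parity was 5. Low 3, the orange square, has the lowest IHH (81.3) and GLI1 (49.4) of the 6 sows, while PTCH1 is higher in all 3 low than in all 3 high prolific sows.

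NR2F2, the stromal nuclear receptor also known as COUP-TFII, was at 4200.2, 4106 and 3496 in high 1 to high 3 and at 3562, 3181 and 3838 in low 1 to low 3. The groups overlapped, with high 3 below low 1 and low 3. The log2 fold change was 0.16 ± 0.12 (SE, adjusted p = 0.735 with limma) and its 95% confidence interval, -0.14 to 0.45, leaves out differences of 1 log2 unit. NR2F2 stayed higher in high prolific sows in all 17 alternatives, between 0.085 without low 2 and 0.24 without high 3. NR2F1, its closest relative, had a log2 fold change of 0.10 and NR2F6 one of 0.29, neither past the test.

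HAND2, a basic helix-loop-helix factor of the stroma, was at 261.0, 261.2 and 223 in high prolific sows and at 225, 222 and 361 in low prolific sows. Low 3 stood above the other 5, which lay between 222 and 261.2. The log2 fold change of -0.083 ± 0.23 (SE, adjusted p = 0.935 with limma) turned to 0.15 when low 3 was left out and to 0.14 when low 2 was left out as well. Because the strand setting of the counting is not given, reads of an antisense partner, which HAND2 and HOXA11 have in other mammals, cannot be told apart from those of the gene.

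The stromal growth signals that lie downstream of NR2F2 and HAND2 in mice were measured in 11 of 14 genes, with 8 higher and 3 lower. At an unadjusted p under 0.05 were 0 of them, beside 7.92% of all genes. FGF9 was at 369, 197 and 194 in high and at 262, 1007 and 553 in low prolific sows. FGF18 went the other way, at 109, 194 and 158 against 162, 38.7 and 25.5. In both genes low 2 and low 3 stood apart from the other 4 sows, and low 1 lay among the high prolific sows. Their log2 fold changes of -1.12 ± 0.52 and 1.44 ± 0.68 (SE) became -0.12 for FGF9 and -0.11 for FGF18 without these 2 sows. FGF18 thus turned in sign and FGF9 did not. FGFR3 (0.31) and FGFR1 (-0.27) followed in the order of p, and without the same sows they were at -0.017 and 0.024.

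TCF21, a basic helix-loop-helix factor of mesenchymal cells in many organs, was at 107, 92.6 and 91.8 in high 1 to high 3. It was at 144, 160.5 and 146 in low 1 to low 3. The gap between the groups, from 107 to 144, was wider than the spread within either group, 97.2 ± 8.6 against 150.2 ± 8.92 (SD, n = 3). TCF21 was thus 1.54-fold lower in high prolific sows, a log2 fold change of -0.63 ± 0.17 (SE) with a 95% confidence interval from -1.04 to -0.21. The unadjusted p was 0.00932 and the adjusted p = 0.619 with limma. The value stayed between -0.70 and -0.55 in all 17 alternatives. The unadjusted p from limma was under 0.05 in 16 of them, the exception being the fit without both low 2 and low 3 (-0.57, unadjusted p = 0.0914, adjusted p = 0.955). The adjusted p over the alternatives lay between 0.2899 (without low 1) and 0.9999. Of the 8 stromal fibroblast markers, 7 were also lower in high prolific sows, around a median of -0.28. LUM and PDGFRB were so without overlap, at -0.28 each, beside 6.32% of all genes that were lower without overlap. COL1A2 (-0.48), COL1A1 (-0.41), COL3A1 (-0.29), DCN (-0.15) and VIM (-0.087) were lower with overlapping groups, and PDGFRA stood at 0.056. In bulk tissue, fewer cells of a type and less RNA per cell cannot be told apart, and the part of the stromal share in the TCF21 difference was not tested.

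Relatives and partners of HAND2 and TCF21, 11 of 14 measured, were 5 higher and 6 lower. ID4, which holds basic helix-loop-helix factors off DNA, was higher in every high prolific sow, at 3806, 5141 and 3481 against 3053, 1206 and 1515. Its log2 fold change was 1.20 ± 0.36 (SE, unadjusted p = 0.0136, adjusted p = 0.619 with limma), and 0.42 without both low 2 and low 3. ID2 (0.93) and ID3 (0.33) did not reach an unadjusted p of 0.05, and were at 0.037 and 0.13 without both low 2 and low 3. The broadly expressed partner TCF12 was even across the sows, with a log2 fold change of 0.034 ± 0.11 (SE).

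HOXA10 was at 1986, 1622 and 1571 in high 1 to high 3 and at 1561, 1509 and 1935 in low 1 to low 3. HOXA11, its neighbour in the HOXA cluster, was at 1235, 1219 and 969.9 in high and at 1320.4, 1041 and 1158 in low prolific sows. In both genes the groups overlapped. The log2 fold change was 0.050 ± 0.15 for HOXA10 (SE, adjusted p = 0.9396 with limma) and -0.042 ± 0.14 for HOXA11 (adjusted p = 0.951). Their 95% confidence intervals, -0.30 to 0.40 and -0.39 to 0.31, hold no difference as large as 1.5-fold in either direction. Both signs depended on single sows, with HOXA10 at -0.055 without high 1 and HOXA11 at 0.071 without high 3 and 0.047 without low 1. Without both low 2 and low 3 they were at 0.14 and -0.22.

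The 27 measured HOX genes and cofactors, of 40 listed, were 16 higher and 11 lower in high prolific sows. At an unadjusted p under 0.05 there were 6, all higher, beside 3.83% of all genes higher at that threshold, and 0 passed over all genes. These 6 were HOXB3, HOXB6, HOXB2, HOXA3, HOXB5 and HOXB8. In each the groups did not overlap, beside 7.18% of all genes that were higher without overlap. Genes picked by p on the same sows tend to part in this way, so the lack of overlap is no separate evidence. HOXB3, with the smallest p, was at 1365, 1503 and 1491 in high and 1131, 1009 and 1155 in low prolific sows (log2 fold change 0.40 ± 0.10, SE, unadjusted p = 0.00628, adjusted p = 0.619 with limma). HOXB6 was at 2808, 2990.2 and 2609 against 2145, 1345 and 1994, a log2 fold change of 0.64 ± 0.19 (SE) that was 0.38 without both low 2 and low 3. HOXB2 had a log2 fold change of 0.36 and HOXA3 one of 0.48, the latter 0.16 without low 2 and low 3. In the main fit 7.92% of all genes were under that threshold in either direction, and brackets give this share for other fits. The count of 6 became 3 when high 2 (3.27%), high 3 (5.74%) or low 2 (4.43%) was left out. It was also 3 with the replicate number as a block (4.31%). It was 4 without high 1 (8.86%) and with parity as a covariate (7.37%), 7 without low 3 (9.67%) and 8 with library weights (11.7%). Without low 1 it stayed at 6, and 3 HOXD genes then lay lower at an unadjusted p under 0.05. In that fit 13.1% of all genes were under this threshold, in either direction.

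Sorted by genomic cluster, a division made after the values were seen, all 7 measured HOXB genes were higher (0.28 to 0.64) and all 6 HOXD genes lower (-0.62 to -0.27) in high prolific sows. The 8 HOXA genes, with HOXA10 and HOXA11 among them, were 5 higher and 3 lower around a median of 0.048. Genes of a cluster are neighbours on the chromosome and are not independent measurements. In the main fit 5 of the 7 HOXB genes were at an unadjusted p under 0.05 (limma), beside 3.83% of all genes higher at that threshold. The HOXB genes stayed higher, 7 of 7, in every alternative. Their median log2 fold change of 0.40 was 0.32 without both low 2 and low 3. The HOXD median of -0.46 was -0.0997 without both low 2 and low 3, and 1 of the 6 then lay higher. HOXD9, the HOXD gene with the smallest p, was at 297, 235 and 165 in high 1 to high 3 and at 251, 334 and 500.2 in low 1 to low 3.

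**Figure D4:**
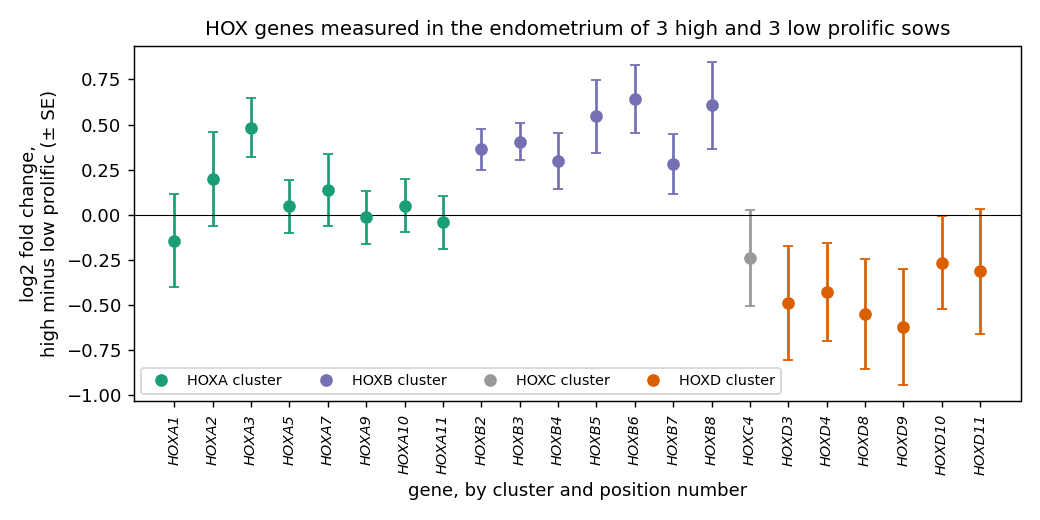
Log2 fold change (high minus low prolific, error bars SE) of the 22 HOX genes with a row, ordered by cluster and number and colored by cluster. The 7 HOXB genes lie above 0 and the 6 HOXD genes below 0, while HOXA10 (0.050) and HOXA11 (-0.042) lie at 0 within their errors.

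FOXO1, a forkhead factor of decidualizing stroma and of glandular epithelium, was at 3308, 2377 and 2369.7 in high 1 to high 3. It was at 2089 in low 1, 3615 in low 2 and 3843 in low 3. The low prolific sows held both the lowest value and the 2 highest. The log2 fold change was -0.21 ± 0.27 (SE, adjusted p = 0.838 with limma). It was -0.49 without low 1 and turned to 0.34 without both low 2 and low 3. Endothelial cells also express FOXO1, and the endothelial marker sum was 17384 in low 2 and 23949 in low 3 against 10326 to 15595 in the other 4 sows, a link that was not tested.

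Relatives and known targets of FOXO1, 12 of 15 measured, were split 6 and 6. SOD2, a mitochondrial superoxide dismutase, was at 889, 797 and 1076 in high and at 1584, 2346 and 3258 in low prolific sows. It was 2.51-fold lower in high prolific sows (log2 fold change -1.33 ± 0.27, SE, unadjusted p = 0.00227, adjusted p = 0.619 with limma), and -0.79 without both low 2 and low 3. SOD2 is also induced by inflammatory signals. FOXO6 (-0.999), CDKN1A (0.38) and INSR (-0.52) followed, all with overlapping groups, and FOXO3 stood at 0.23. Without both low 2 and low 3, INSR turned to 0.26 and CDKN1A was at 0.21.

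GATA2, a zinc finger factor upstream of PGR, was at 3319, 4413 and 4114 in high 1 to high 3. It was at 3376 in low 1, 2255 in low 2 and 2168 in low 3. Only high 1 and low 1 crossed, so that low 2 and low 3 lay below and high 2 and high 3 above this pair. GATA2 was 1.54-fold higher in high prolific sows, with a log2 fold change of 0.62 ± 0.21 (SE) and a 95% confidence interval from 0.13 to 1.12 (unadjusted p = 0.0216, adjusted p = 0.619 with limma). It was higher in all 17 alternatives, from 0.22 without both low 2 and low 3 (unadjusted p = 0.343) to 0.83 without low 1 (unadjusted p = 0.00225, adjusted p = 0.187 with limma). Its unadjusted p was under 0.05 in 11 of the 17 alternatives. It was not when high 2 (0.0729), high 3 (0.0621), low 2 (0.0689) or low 3 (0.0668) was left out. Its adjusted p over the alternatives lay between 0.187 and 0.9999. The 8 measured epithelial markers did not move together, with 4 higher and 4 lower in the high prolific group. Of the lower ones 3, CDH1, CLDN4 and CLDN3, showed no overlap, beside 6.32% of all genes that were lower without overlap. The keratins KRT7, KRT8 and KRT18 were lowest in low 2 and low 3, KRT8 being at 14061 (low 2) and 11217 (low 3) where the other 4 sows ranged from 19084 to 27435. CDH1, at 26177 and 19927 in low 2 and low 3 against 15319 to 22226 in the others, did not share that order. The part of epithelial makeup in the GATA2 difference was not tested.

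Relatives of GATA2, NR2F2 and SOX17, 10 of 17 measured, were 7 higher and 3 lower. SOX13 was at 3145, 3514 and 2909.9 against 3074, 1764 and 1903. As in GATA2, low 2 and low 3 were lowest, but high 3 and not high 1 lay below low 1. The SOX13 log2 fold change of 0.55 shrank to 0.049 when low 2 and low 3 were left out. SOX18, an endothelial factor of the same SOXF group as SOX17, was at 365, 253 and 205 in high and at 312, 395 and 534 in low prolific sows (log2 fold change -0.60 ± 0.28, SE, adjusted p = 0.654 with limma), and at -0.23 without both low 2 and low 3. GATA6 (0.45) overlapped as well, and was at 0.80 without these 2 sows. The genes whose levels followed GATA2 most closely over the 6 sows were CYB561D1, RAB3IP and NMRK1. Their centred log2 values differed from those of GATA2 by a root mean square of 0.047, 0.087 and 0.089.

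The receptor that GATA2 acts upon, PGR, was at 767, 741 and 805 in high and at 798, 649 and 738 in low prolific sows, where low 1 was above high 1 and high 2. In the list of the progesterone receptor and its cofactors, 15 of 16 measured, 10 were higher and 5 lower, and 4 did not overlap between the groups, all higher in high prolific sows (7.18% of all genes). PGRMC1, a membrane-bound heme protein that associates with progesterone signalling, was at 25236, 26027 and 24604 against 19898, 20511 and 21366. Its log2 fold change was 0.30 ± 0.11 (SE, unadjusted p = 0.0289, adjusted p = 0.619 with limma). NCOA1 (0.21), a coactivator of steroid receptors, FKBP5 (0.22), a cochaperone and progesterone target, and ARID1A (0.11), a chromatin remodeller, were the other 3. FKBP5 parted by little, with high 3 at 14167 and low 3 at 14118.

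KLF9, a Krüppel-like factor that binds PGR, was at 3289, 1679.7 and 1785 in high 1 to high 3. It was at 1879 in low 1, 2109 in low 2 and 3523 in low 3. High 1 and low 3 stood well above the other 4 sows, 1 in each group, and these are the 2 sows of parity 5. Between the groups the log2 fold change was -0.17 ± 0.34 (SE, adjusted p = 0.908 with limma). It turned to 0.0088 without high 2, 0.11 without low 3, 0.19 without both low 2 and low 3 and 0.060 with parity as a covariate.

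The same 2 sows were highest for HOXA10, so that 2 of the 9 factors had both sows of parity 5 above the other 4, beside 11.1% of all genes. In a fit with group and parity together, a look taken after these values were seen, KLF9 had a slope of -0.34 ± 0.045 (SE) log2 units per further litter (unadjusted p = 0.000371, adjusted p = 0.308 with limma). HOXA10 had a slope of -0.12 ± 0.038 per litter (unadjusted p = 0.0185, adjusted p = 0.463 with limma). The other 7 factors had an unadjusted p above 0.05 for parity, and 9.42% of all genes lay under it, with 0 past adjustment. Only 2 sows had parity 5, and parity cannot be told apart from anything else these 2 shared. Of the 8 stromal fibroblast markers 3 were also highest in these 2 sows, VIM (25308 and 36924), DCN (35384 and 43282) and PDGFRA, while the sum of the 8 was highest in low 2. The part of the stroma in the pattern was not tested.

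**Figure D5:**
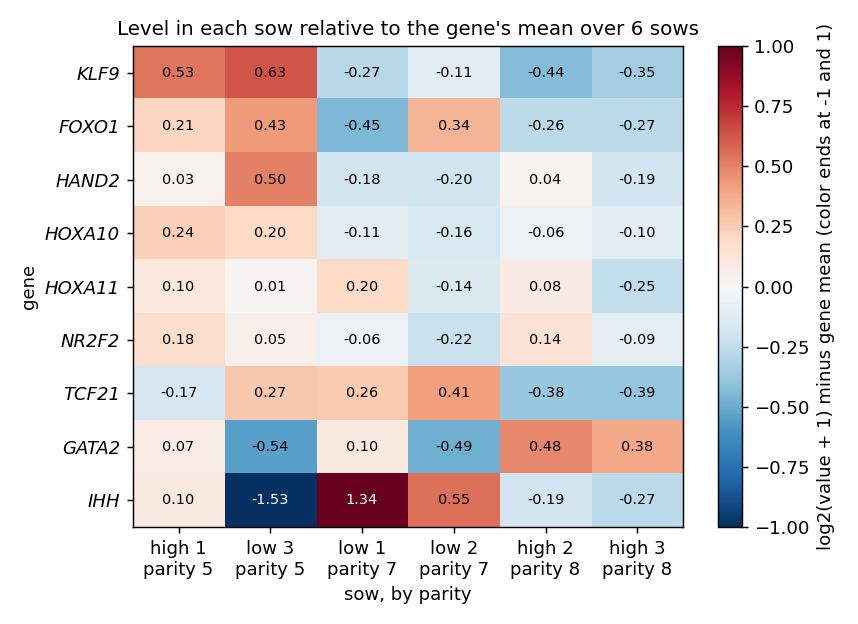
Level of each factor in each sow as its log2(value + 1) less the mean of that gene, with sows ordered by parity (color ends at -1 and 1, numbers give the value). KLF9 is high in both sows of parity 5 (0.53 and 0.63), and IHH spans from -1.53 in low 3 to 1.34 in low 1.

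The genes whose levels followed KLF9 most closely were NCOA3, MID1IP1 and MAGI2, with root mean square differences of 0.077, 0.091 and 0.11 in centred log2 values. NCOA3, a steroid receptor coactivator, was at 5745, 3241 and 3217 in high 1 to high 3 and at 3567, 3882 and 5794.5 in low 1 to low 3. For IHH the nearest were TMEM132E, SPDEF and FBXO2, at wider differences of 0.29, 0.32 and 0.37. SPDEF, a transcription factor of secretory epithelium, was at 2204, 2357.5 and 2590.5 in high and at 4127, 3929 and 993 in low prolific sows, so low 1 and low 2 were again above and low 3 below all high prolific sows. Over 6 sows such closeness is a description.

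Within the KLF family, 14 of 15 measured, 6 were higher and 8 lower. At an unadjusted p under 0.05 (limma) were 1 higher and 2 lower, beside 3.83% and 4.09% of all genes. The groups did not overlap in 1 higher and 3 lower genes, beside 7.18% and 6.32% of all genes. KLF12, a repressor, was at 85.3, 89.1 and 91.8 in high and at 121, 347 and 166 in low prolific sows (log2 fold change -1.10 ± 0.39, SE, unadjusted p = 0.0273, adjusted p = 0.619 with limma), and -0.44 without both low 2 and low 3. KLF5, a factor of proliferating epithelium, was lower in all 3 high prolific sows (8752 ± 1872 against 12685 ± 2453, SD, n = 3). KLF4, a factor of differentiated epithelium, was higher in all 3 (1518 ± 70.3 against 1248 ± 120.2). KLF8 was lower in all 3 as well, by a log2 fold change of -0.35. With low 2 and low 3 left out, KLF5 went from a log2 fold change of -0.54 to -0.32, and KLF4 from 0.29 to 0.14.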

How the data were processed

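Endometrial RNA from 6 sows was sequenced on Illumina libraries, and the submitters' processing notes name Subread 1.6, featureCounts and edgeR without roles. The deposited table gives 1 signal per gene and library, a normalized read count made by the authors; the kind of normalization, the genome build, the annotation and the strand setting are not given in the sources used here, and no coordinates are printed. Column sums lay between 22663087 and 24270245 and are set by that normalization. Of the values below 20, between 40.6% (high 2) and 100% (high 3) came within 0.1 of a whole multiple of the best step, so whole reads were not recovered, the depth is unknown and no count model was run. Low genes were gone before deposit (smallest gene mean 17.6), and asking for a value of 10 in 3 libraries removed none of the 14262 genes. Symbols matched 11977 identifiers.

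Groups were compared on log2(value + 1) with limma 3.58.1 in R 4.3.3 (variance trend, robust moderation, two-sided), with Benjamini-Hochberg adjustment over all genes at 0.05. P-values measure the spread between the 3 libraries of a group. The procedure was tested on simulated data. The members and gene lists were chosen with earlier results of these data known, so no list was tested as a set. Named were all members, up to 4 genes of each list by p, and the 3 nearest genes of each member spanning over 1 log2 unit; others were chosen after their values were seen. 1 gene of a list is not reported here. The alternatives were another pseudocount (10), filters, 3 rescalings (equal sums, an unweighted trimmed mean of M-values, quantiles), no variance trend, library weights, parity, a replicate block and left-out libraries. The filters, the fit without variance trend and the replicate block alter p-values but leave the fold change of a gene as it is. For sums of markers an exact permutation test (two-sided) was used.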

Additional observations from a re-analysis of the deposited data

How the results depend on the processing

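The deposited table and the planned filter gave the same values as no filter. Genes at an unadjusted p under 0.05 numbered 1129 in all, 466 to 1872 with single libraries left out (the extremes without high 2 and low 1) and 631 with low 2 and low 3 both left out. Genes past adjustment numbered 0, and 0 to 4 with single libraries left out (4 without low 1 and 1 without low 2). Of the 9 factors 2 were at an unadjusted p under 0.05, 1 to 3 with single libraries left out and 1 without both low 2 and low 3. TCF21, GATA2 and NR2F2 kept their direction in all 17 alternatives, though the filters, the fit without variance trend and the replicate block could not change a fold change. HOXA10 turned to -0.055 without high 1 and -0.018 without low 2 (up to 0.16 over single left-out libraries). HOXA11 turned to 0.0033 with columns rescaled to the same sum, 0.071 without high 3 and 0.047 without low 1 (down to -0.12). HAND2 turned to 0.037 with library weights, 0.0055 with parity, 0.15 without low 3 (down to -0.20) and 0.14 with low 2 and low 3 both left out. KLF9 turned to 0.060 with parity, 0.0088 without high 2, 0.11 without low 3 (down to -0.48) and 0.19 with low 2 and low 3 both left out. FOXO1 turned to 0.34 without both low 2 and low 3, and IHH to 0.37 without low 1 (down to -1.07 without low 3). The cause was not tested. With 1 library left in the low group, its spread is taken from the high group.

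Same-numbered sows did not deviate together (correlations of -0.38, -0.16 and -0.36 across genes for numbers 1, 2 and 3). Deviations were taken from the group means, which ties these correlations to each other. Whether same-numbered sows share more than a number was not tested. With the replicate number as a block in limma, 615 genes and 1 of the 9 factors, TCF21 (unadjusted p = 0.0425, adjusted p = 0.931), were at an unadjusted p under 0.05, and GATA2 was at an unadjusted p = 0.0618 with limma. High 1 correlated best with low 3 (0.38), not with its own number.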

Other observations

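Other transcription factors of the uterus, 19 of 24 measured, were divided into 10 higher and 9 lower. In each direction 1 was at an unadjusted p under 0.05, beside 3.83% of all genes higher and 4.09% lower. STAT5A, which relays prolactin and cytokine signals, was at 683, 626 and 1007 in high 1 to high 3 and at 1137, 1514 and 1055 in low 1 to low 3. All 3 high prolific sows lay below all 3 low prolific sows, at a log2 fold change of -0.69 ± 0.23 (SE, adjusted p = 0.619 with limma). STAT5B, its close relative, also lay lower without overlap, by -0.21, and was not at an unadjusted p under 0.05 (limma). These were the 2 of the 19 that were lower without overlap, beside 6.32% of all genes. PAX2, a paired-box factor of the Müllerian duct epithelium, was at 6428, 8737 and 8818 against 6805, 3334 and 3091. Its sows followed the order seen in GATA2, with low 2 and low 3 at the bottom and high 2 and high 3 at the top, and a log2 fold change of 0.94 became 0.22 when low 2 and low 3 were left out. CEBPB, a factor of implantation in mice, was at 5295, 3023 and 7775 against 9026, 9480 and 7222 (log2 fold change -0.77 ± 0.34, SE), with high 3 inside the low prolific range.

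The pattern of KLF9, with both sows of parity 5 above the other 4, was also that of 6 of 12 measured genes in the list of FOXO1 relatives and targets, beside 11.1% of all genes. This was the highest share among the pathway lists, the others including 4 of 14 KLF genes, 7 of 27 HOX genes and cofactors and 1 of 14 hedgehog genes. Among the marker lists it was 3 of 7 for endothelium, 3 of 8 for stromal fibroblasts and 0 of 8 for epithelium. The 6 were FOXO4, FOXO6, CAT, CDKN1B, PDK4 and IRS2, and were looked up after their values were seen. PDK4, which spares glucose in fasting, was at 2406 (high 1) and 5188 (low 3) where the other 4 sows ranged from 1272 to 2173. IRS2, an adaptor of the insulin receptor, was at 486 and 667 in these 2 sows and between 262 and 335 in the rest. FOXO1 itself was at 3615 in low 2, above high 1 (3308), and so does not share this order.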
